A study of Mus musculus with 8 samples.

Results

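The genes described here are 10 genes of the unfolded protein and amino acid stress responses: Atf4, Atf3, Ddit3, Xbp1, Asns, Trib3, Chac1, Hspa5, Herpud1 and Dnajb9. They were chosen by name, with earlier results of these data known. All 10 are present among the 18193 genes named by a single symbol on the array. They are read by 21 probe sets, and Atf3, Chac1 and Dnajb9 have 1 each. All 10 passed the filter on low signal, which left 10916 genes tested.

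The study set 4 mouse arrays labelled Bmi1 against 4 labelled control, numbered 1 to 4 in each group. Bmi1 arrays carry RNA of hepatoblasts transduced with Bmi1, a subunit of Polycomb repressive complex 1, and control arrays RNA of hepatoblasts transduced with EGFP. All cells, controls included, were Ink4a-Arf-null, came from the liver at embryonic day 14.5, were sorted for Dlk, and grew in medium that held EGF (20 ng/ml) and HGF (50 ng/ml). They were purified by flow cytometry at day 28 of culture, and the series text speaks of independent experiments. The sources used here do not give the vector, its promoter or whether cells of several embryos were pooled.

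Proteins that fold poorly in the endoplasmic reticulum (ER) release the chaperone BiP, product of Hspa5, from the sensors PERK, IRE1 and ATF6. PERK phosphorylates eIF2alpha, as GCN2 does when amino acids run short, and this slows general translation while raising translation of ATF4, which acts on genes of amino acid supply. IRE1 splices the Xbp1 transcript and ATF6 is cut to a free transcription factor, and both act on chaperones and on ER-associated degradation. Hepatocytes secrete large amounts of plasma protein and depend on this system. The files hold no separate value for spliced Xbp1, and a transcript level does not show the translation of Atf4.

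Between the groups the differences of these genes were small. On the centred log2 scale 9 of the 10 genes were lower in the arrays labelled Bmi1, as were 54.3% of all tested genes, and the median difference was -0.28 against -0.03 over all tested genes. Without a block 0 of the 10 passed limma at an adjusted p of 0.05, while 0.165% of all tested genes passed. At an unadjusted p under 0.05 there was 1 of the 10, Dnajb9, against 7.81% of all tested genes. With the replicate number as a block 1 of the 10 passed, Asns, against 3.33% of all tested genes. At an unadjusted p under 0.05 with the block there were 3 of the 10, Asns, Dnajb9 and Xbp1, against 18.0% of all tested genes. Differences are Bmi1 minus control, on the scale of log2(signal + 3.78) after each array was centred on the median of the tested genes.

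**Figure D1:**
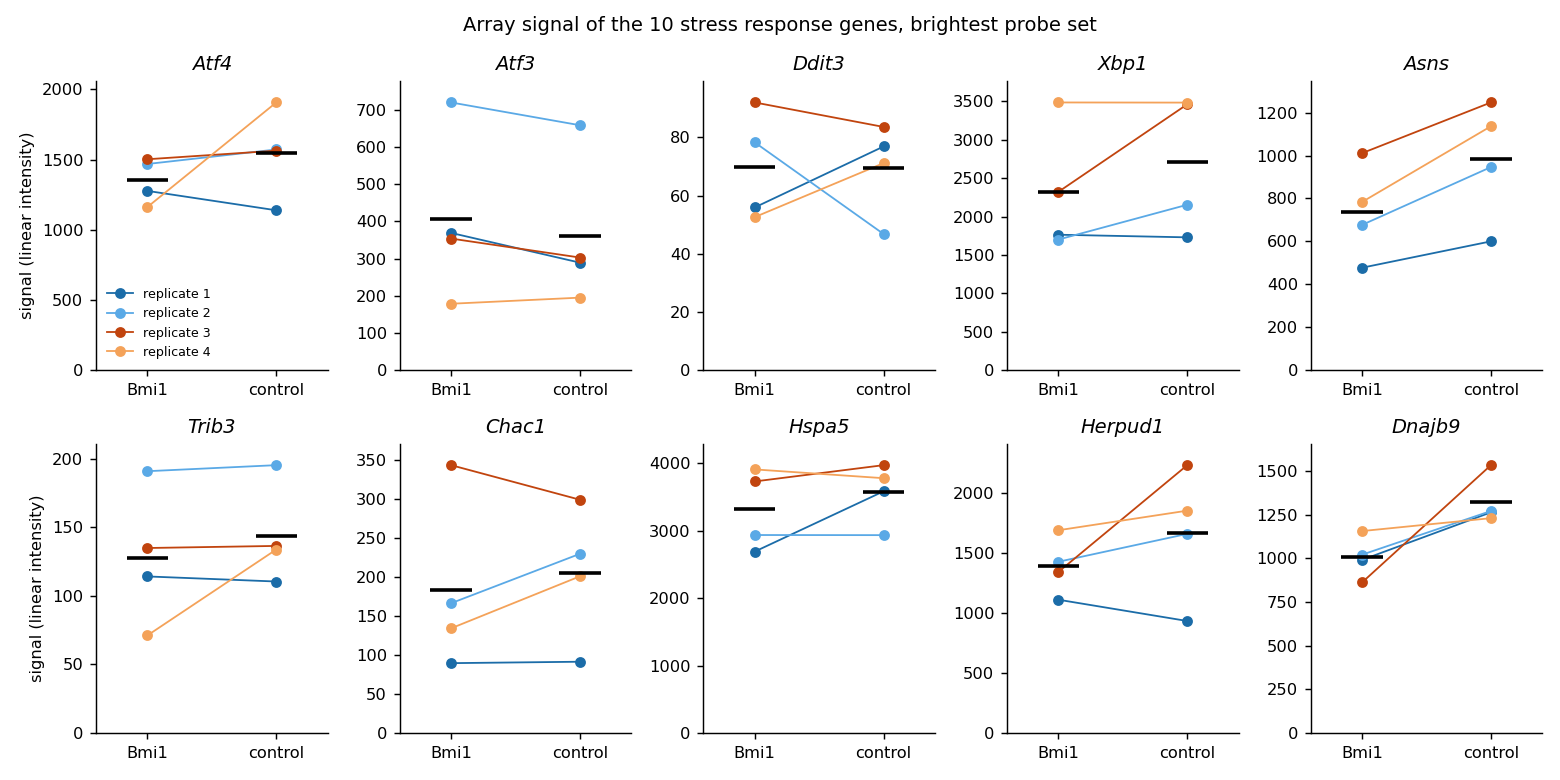
Signal (linear intensity, as deposited and not centred) of the brightest probe set of each of the 10 genes, with the arrays labelled Bmi1 on the left and those labelled control on the right of each panel. Lines join arrays of the same replicate number and black bars are group means (n = 4 each); Asns and Dnajb9 are lower on the Bmi1 side in 4 of 4 pairs, and the groups overlap for all genes but Dnajb9.

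By BioC, a hybridisation control, the arrays fall into replicates 1 and 2 (signals of 198 to 274) and replicates 3 and 4 (97.0 to 119), called run 1 and run 2 here though no label names them. Each run holds both groups. The brighter Bmi1 probe set read 318, 273, 328 and 197 in the arrays labelled Bmi1, against 802, 395, 568 and 306 in those labelled control. A second one averaged 100 ± 25.4 in the arrays labelled Bmi1 and 216 ± 136 in those labelled control. Both were lower in 4 of 4 pairs, opposite to what the labels say was introduced. Whether the labels or the part of the gene that the probes read accounts for this was not tested. Every direction below is only that of the labels. Of the hepatoblast and hepatocyte markers 14 of 14 were above background on all 8 arrays, with summed signals of 30078 to 45963 in the arrays labelled Bmi1 and 34136 to 50722 in those labelled control. Of the fibroblast and stellate markers 9 of 12 were above background on all arrays. Their summed signals were 3824 to 7975 in the arrays labelled Bmi1 and 4885 to 15647 in those labelled control. The sum was highest on control 1, without which the median difference of the 10 genes was -0.42. Of these markers 11 of 12 were lower (median -0.96, or -0.35 without control 1). With the block 1 of them passed as lower and 1 as higher. Biliary markers summed to 2525 to 3102 in the arrays labelled Bmi1 and 1457 to 2490.6 in those labelled control. Of the 5 tested 4 were higher (median 0.27), and 1 passed with the block. Of 8 endothelial markers 2 and of 8 macrophage markers 4 were above background on all arrays, with Pecam1 above it on 0 arrays and Ptprc on 1. Their summed signals were 244 to 352 (endothelial) and 190 to 523 (macrophage) in the arrays labelled Bmi1, against 119 to 238 and 285 to 729 in those labelled control. The endothelial sum was mostly Egfl7, and with no filter on level 5 of the 8 endothelial markers were lower (median -0.22). In the macrophage sum Csf1r was the brightest marker on every array. Of the mesothelial markers the 3 tested were all lower (median -0.89) and 1 passed with the block, with sums of 47.0 to 151 in the arrays labelled Bmi1 and 102 to 299 in those labelled control. The part of such cells in the results was not tested, and in sorted cells as here fewer cells of a type and less RNA per cell cannot be told apart.

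Promoter stretches with letters of known response elements are shown because such elements tie target genes to ATF4 or to the ER arms of the response. RefSeq promoter windows on build GRCm38.p6, from 250 bases before to 50 after the start site, were found for all 10 genes. They were searched on both strands for the core TGATGNAA of the C/EBP-ATF element that ATF4 binds, for the ER stress response elements ERSE (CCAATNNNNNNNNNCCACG) and ERSE-II (ATTGGNCCACG), for the XBP1 element core TGACGTGG and for the cyclic AMP element TGACGTCA. These motifs do not overlap each other in the windows below. The first was in 5 of the 10, Atf3, Asns, Trib3, Chac1 and Herpud1, against 3.97% of 32851 promoter windows. ERSE was in that of Hspa5 (0.119% of all windows) and ERSE-II in that of Herpud1 (0.0365%). The last 2 motifs were found in 0 of the 10 (0.676% and 1.79% of all windows). The 10 genes were chosen by name for these responses, so these shares are a description and no test of enrichment. The matches outside transcribed sequence, in capitals and each read 5′ to 3′ on the gene's strand, were:
Asns, minus strand, chr6:7693210-7693247: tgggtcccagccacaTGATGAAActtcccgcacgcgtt
Chac1, plus strand, chr2:119351034-119351071: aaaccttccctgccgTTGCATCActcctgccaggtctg
Atf3, minus strand, chr1:191183421-191183458: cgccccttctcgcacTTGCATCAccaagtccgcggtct
Hspa5, plus strand, chr2:34772010-34772058: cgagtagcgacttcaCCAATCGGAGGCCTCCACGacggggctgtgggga
Herpud1, plus strand, chr8:94386302-94386402: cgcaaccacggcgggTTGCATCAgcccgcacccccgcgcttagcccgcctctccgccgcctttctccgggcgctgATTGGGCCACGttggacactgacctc

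Transcription factors come first. Atf4, the factor at the centre of the integrated stress response, read 1277, 1469, 1503 and 1163 on Bmi1 arrays 1 to 4, against 1139, 1573, 1564 and 1908 on control arrays 1 to 4. The groups overlapped, and control 4 was the highest array. The log2 difference was -0.25 (SE 0.15, 95% interval -0.59 to 0.09), with a limma adjusted p of 0.822, and 0.383 with the replicate block. A second probe set of Atf4, of the _x_at kind that can share probes with other transcripts, averaged 658 ± 83.5 in the arrays labelled Bmi1 and 649.5 ± 108 in those labelled control, a difference of -0.03 (SE 0.16). The third was above background on 1 of 4 Bmi1 arrays and on 2 of 4 control arrays, so it gives no usable fold.

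Ddit3, which encodes CHOP, a factor induced late in ER stress and linked to cell death, was dim but above background on all 8 arrays. Its brighter probe set read 56.0, 78.3, 92.0 and 52.6 in the arrays labelled Bmi1, against 76.9, 46.8, 83.6 and 71.2 in those labelled control. High and low arrays were mixed between the groups, with mean signals of 69.7 in the arrays labelled Bmi1 and 69.6 in those labelled control, and the centred log2 difference was -0.08 (SE 0.25, interval -0.63 to 0.48, limma adjusted p = 0.985; replicate block, adjusted p = 0.889). Changes of either sign within that interval were not detectable with 4 arrays a group. The dimmer probe set averaged 21.8 ± 11.9 in the arrays labelled Bmi1 and 31.9 ± 22.4 in those labelled control (difference -0.40, SE 0.55).

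Atf3, a stress-induced partner and rival of ATF4 and of AP-1 factors, was the 1 gene of the 10 with a positive difference on the centred log2 scale. It read 369, 719.9, 354 and 179 in the arrays labelled Bmi1, against 289, 659, 303 and 195 in the arrays labelled control. Arrays of the same replicate number lay close together, with both replicate 2 arrays high and both replicate 4 arrays low. The spread between replicate numbers was thus far larger than the difference between groups. That difference was 0.07 (SE 0.46, limma adjusted p = 0.995, and with the block SE 0.12, adjusted p = 0.801).

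Xbp1, the target of IRE1 splicing and a factor for chaperone, degradation and secretory genes, differed more between the runs than between the groups. The brightest of its 4 probe sets read 1764, 1701, 2323 and 3487 in the arrays labelled Bmi1, against 1730.2, 2155, 3463 and 3485 in those labelled control. Bmi1 3 was well under control 3, while arrays 1 and 4 were nearly equal between the groups. The difference was -0.30 (SE 0.26, limma adjusted p = 0.943; with the replicate block SE 0.12, adjusted p = 0.246). With single arrays left out it ran from -0.50 (without Bmi1 4) to -0.17 (without Bmi1 2 or control 3). The other 3 probe sets gave differences of -0.26, -0.19 and 0.05, and at all 3 pair 1 was higher in the array labelled Bmi1.

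The targets of the integrated stress response include the 1 gene called. Asns makes asparagine from aspartate and glutamine and is a classical target of ATF4 under amino acid shortage. It read 477, 677, 1011 and 784 on Bmi1 arrays 1 to 4, against 600.3, 946, 1247 and 1136 on control arrays 1 to 4. Each Bmi1 array was below the control array of its own number, although the groups as a whole overlapped. The pair differences were -0.42, -0.57, -0.39 and -0.56, a mean of -0.48 or a signal 0.71 of the control level. Asns fell with the replicate block (SE 0.09, interval -0.70 to -0.27, limma adjusted p = 0.0347). Without the block it did not pass (SE 0.25, interval -1.04 to 0.07, adjusted p = 0.748).

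The call of Asns did not survive other choices. With the block in each of 8 other settings the adjusted p ran from 0.0513 to 0.396, 0.0513 with every probe set tested by itself and 0.396 with arrays centred on all probe sets. Leaving out replicate 1, 2, 3 or 4 in both groups gave 0.0573, 0.156, 0.114 and 0.134, so the call was lost without any 1 pair. The difference itself was then -0.52 to -0.46. The direction was lower in 31 of 31 other settings, from -0.73 to -0.32. The second Asns probe set, a _x_at one, averaged 537 ± 253 in the arrays labelled Bmi1 and 715 ± 220.4 in those labelled control and was lower in 4 of 4 pairs (-0.61, -0.75, -0.14 and -0.66; block adjusted p = 0.0907 with limma over all probe sets).

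Trib3, a pseudokinase that restrains ATF4 and AKT, read 114, 191, 135 and 71.2 in the arrays labelled Bmi1, against 111, 196, 137 and 134 in those labelled control. Only Bmi1 4 stood clearly under its partner, with a pair difference of -0.91, while the other pairs lay between -0.12 and -0.05. The difference was -0.29 (SE 0.30, limma adjusted p = 0.945, and 0.437 with the block). Without Bmi1 4 it was -0.04, and without Bmi1 2 it was -0.51. The second Trib3 probe set averaged 84.1 ± 26.2 in the arrays labelled Bmi1 and 109.7 ± 35.7 in those labelled control, lower in 4 of 4 pairs (difference -0.42, SE 0.30).

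Chac1, which degrades glutathione and is induced by ATF4, ATF3 and CHOP, read 89.6, 167, 344 and 134 in the arrays labelled Bmi1, against 91.4, 229.97, 299 and 201 in those labelled control. It was highest on both replicate 3 arrays and lowest on both replicate 1 arrays, and the order of the replicate numbers was the same in both groups. The difference of -0.29 was smaller than its error without the block (SE 0.42, limma adjusted p = 0.967) and did not pass with it (SE 0.16, adjusted p = 0.392). Without Bmi1 3 it was -0.63, and without Bmi1 1 it was -0.03.

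The third set acts in the ER itself. Dnajb9 encodes ERdj4, a J-domain partner of BiP that also holds IRE1 in check. It read 990.5, 1020.4, 862 and 1155 in the arrays labelled Bmi1, against 1263, 1270.3, 1533 and 1229 in those labelled control. All 4 Bmi1 arrays were below all 4 control arrays, and no other gene of the 10 showed this. Of all tested genes 2.91% had groups apart in that direction. The difference was -0.47 (SE 0.14, interval -0.77 to -0.16), largest in pair 3 (-0.91) and smallest in pair 4 (-0.12). It had the smallest unadjusted p of the 10 genes without the block (0.00663 with limma) and yet did not pass after adjustment (adjusted p = 0.277, and 0.110 with the block).

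Hspa5, the gene of BiP, read 2692, 2938, 3733 and 3912 in the arrays labelled Bmi1, against 3586, 2936, 3975 and 3781 in those labelled control. Only in pair 1 was the Bmi1 array far lower. The difference was -0.19 (SE 0.13, interval -0.48 to 0.11, limma adjusted p = 0.890, and 0.372 with the block). Without Bmi1 1 it was -0.11. Its 3 probe sets disagreed in size, with -0.28 (SE 0.15) at one of the others and 0.02 (SE 0.20) at the third.

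Herpud1, a membrane protein of the ER-associated degradation complex, gave opposite signs at its 2 probe sets. The brighter one read 1109.8, 1426, 1341 and 1689 in the arrays labelled Bmi1, against 932, 1658, 2231 and 1852 in those labelled control, a difference of -0.28 (SE 0.23, limma adjusted p = 0.925, and 0.378 with the block). Without control 1 it was -0.51, and without control 3 it was -0.13. The other averaged 945 ± 204 in the arrays labelled Bmi1 and 814 ± 301 in those labelled control, a difference of 0.21 (SE 0.28), higher in the Bmi1 array of 3 of 4 pairs. At both, pair 3 had the lowest difference, -0.82 and -0.63.

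**Figure D2:**
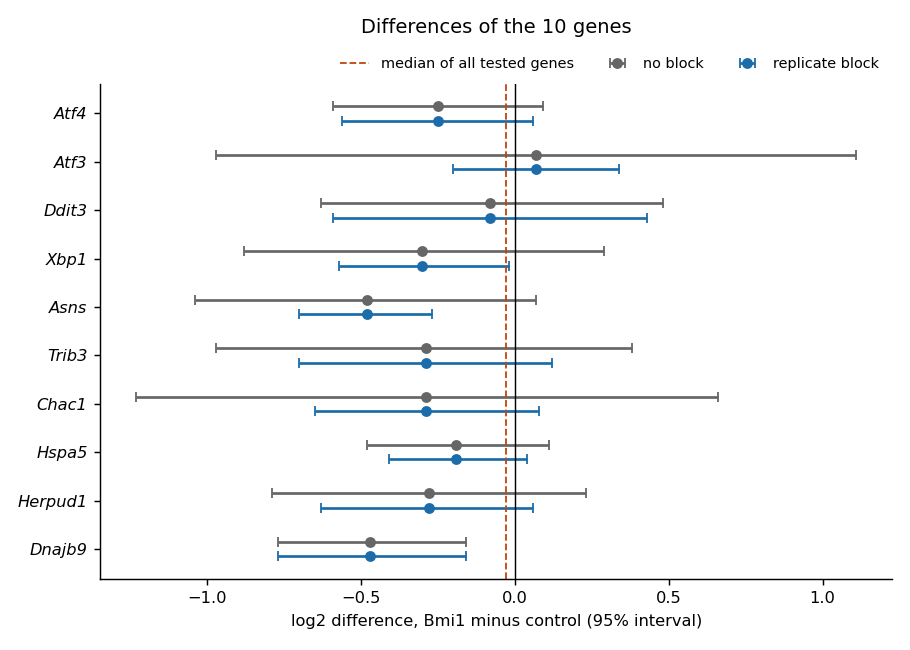
Log2 difference, Bmi1 minus control, of the 10 genes with 95% intervals from limma, without a block (grey) and with the replicate number as a block (blue); the dashed line is the median of all tested genes, -0.03. Estimates are the same in both models, while the interval of Asns narrows from -1.04 to 0.07 without the block to -0.70 to -0.27 with it.

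After centring, 4 of the 10 genes were lower in 4 of 4 pairs, Xbp1, Asns, Trib3 and Dnajb9, against 15.8% of all tested genes. In the uncentred signals only Asns and Dnajb9 were. Over all 21 probe sets 17 had a lower and 4 a higher mean difference, and 7 were lower in every pair. Pair by pair, 7, 8, 7 and 9 of the 10 genes were lower, with medians of -0.10, -0.24, -0.16 and -0.30, where all tested genes had medians of -0.01, -0.05, -0.04 and -0.01. Probe sets of 1 gene and genes of 1 pathway share their RNA and are not independent. The median was -0.39 within run 2 and -0.16 within run 1, and the interaction of run and group passed for 0 of the 10 (limma, smallest unadjusted p 0.188, adjusted p = 1).

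**Figure D3:**
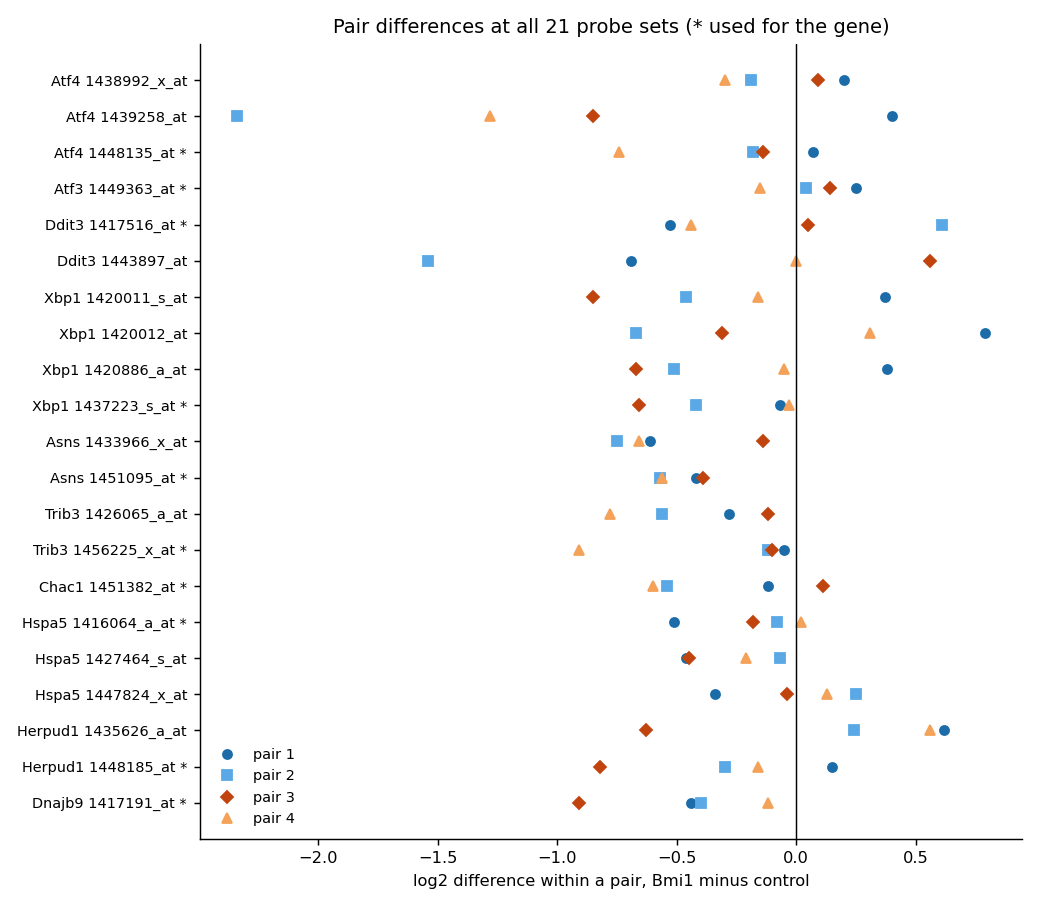
Log2 difference within each replicate pair, Bmi1 minus control after centring, at all 21 probe sets of the 10 genes; a star marks the probe set used for the gene. The 4 pairs of the Asns probe set with the star lie together between -0.57 and -0.39, whereas those of Ddit3 and Herpud1 lie on both sides of 0.

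Between run 2 and run 1, limma called 3 of the 10, a share near the 24.3% of all tested genes that it called. For these 3 the difference between the runs was larger in size than that between the groups, narrowly so for Asns (0.55 against -0.48). Xbp1 was higher by 0.68 (SE 0.13, adjusted p = 0.00778) and Asns by 0.55 (SE 0.16, adjusted p = 0.0385) in run 2, and Atf3 was lower by a difference of -1.03 (SE 0.32, adjusted p = 0.0459). For Atf3 the estimate is carried by the replicate 2 arrays, at 719.9 and 659, and the replicate 4 arrays, at 179 and 195.

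Asns and Chac1 were, in each group, highest on the replicate 3 array and lowest on the replicate 1 array. The tested genes whose centred profile over the 8 arrays lay nearest to that of Asns were Uqcrq, of respiratory complex III, Cars, the cysteinyl-tRNA synthetase, and Asl, the argininosuccinate lyase of the urea cycle. Their root mean square distances from Asns were 0.14, 0.14 and 0.15 on the log2 scale, where the median over all tested genes was 0.52. Nearest to Trib3 were Tyw3, Dusp1 and Mif4gd (0.20, 0.21 and 0.21, median 0.55), nearest to Ddit3 were Gcc1, Asf1a and Anapc4 (0.16 each, median 0.45) and nearest to Hspa5 were Bex1, Cttn and Cox5b (0.04, 0.05 and 0.05, median 0.37). These genes were picked as the nearest of all tested, so their distances lie under the medians by choice. The root mean square spread of the member's own profile was 0.42 for Asns, 0.44 for Trib3, 0.30 for Ddit3 and 0.19 for Hspa5. Among the 10 genes, the closest pairs were Asns with Herpud1 and Xbp1 with Herpud1, each at a distance of 0.25.

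The Asns match lies on the gene's own strand 23 bases before the start site given by RefSeq, that of Trib3 within the transcript at base 15, and that of Chac1 193 bases before it. The 5 genes with the C/EBP-ATF core in the window had log2 differences of -0.48 (Asns), -0.29 (Trib3), -0.29 (Chac1), -0.28 (Herpud1) and 0.07 (Atf3). The 5 without it in the window had -0.47 (Dnajb9), -0.30 (Xbp1), -0.25 (Atf4), -0.19 (Hspa5) and -0.08 (Ddit3). Sequence outside the window was not searched. The ranges overlap, and a motif match is a description of the letters only.

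The wider response was read from 10 lists, chosen with earlier results of these data known, so their shares are a description and no test. The lists held 156 genes, of which 147 were named by a single symbol and 144 were tested. Of these, 115 were lower and 29 higher in the arrays labelled Bmi1, 79.9% lower against 54.3% of all tested genes, with a median log2 difference of -0.17 against -0.03. The share depends on the scaling: with arrays centred on all probe sets 55.6% of the list genes and 33.2% of all tested genes were lower, with medians of -0.04 and 0.11. Without the block 0 of 144 passed limma, with 18 at an unadjusted p under 0.05, where 7.81% of all tested genes were. With the replicate block 5 passed, 3 lower and 2 higher. That is 3.47% of the list genes, close to the 3.33% of all tested genes.

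The lists of the ER held mostly negative differences in the main scaling. All 18 tested genes of ER-associated degradation had a lower mean in the arrays labelled Bmi1, with a median of -0.24 and a range of -0.56 to -0.05. All 20 tested genes of ER translocation and secretory traffic were lower too, with a median of -0.17 and a range of -0.66 to -0.04. Centring on all probe sets left 13 of 18 and 12 of 20 lower, with medians of -0.10 and -0.04. Leaving out control 1 left 16 of 18 and 17 of 20, and leaving out control 3 left 17 of 18 and 15 of 20. Among ER chaperones and disulfide isomerases 18 of 22 were lower (median -0.16), or 12 of 22 with that centring. Of these 3 lists 1 gene passed with the block, Spcs3.

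Spcs3, a subunit of the signal peptidase that trims secreted proteins, read 751, 661, 668 and 734 in the arrays labelled Bmi1, against 1159, 862, 976 and 858 in those labelled control. The groups did not overlap, and the gene fell with the block (-0.52, SE 0.11, limma adjusted p = 0.0483, and 0.301 without). In the 8 other settings with the block it did not pass (adjusted p of 0.0605 to 0.38), while its difference was -0.61 to -0.38 over all settings. Dnajb11, a BiP co-chaperone, read 315, 305, 329 and 346 in the arrays labelled Bmi1, against 397, 395, 423 and 415 in those labelled control. Its groups did not overlap either, at -0.40 (SE 0.13, adjusted p = 0.327, and 0.0875 with the block). Groups lay apart in that lower direction for 2.91% of all tested genes. Derl2, of the degradation channel, averaged 473 ± 42.7 in the arrays labelled Bmi1 and 628 ± 108 in those labelled control (-0.47, adjusted p = 0.464, and 0.0682 with the block).

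No sensor or eIF2alpha regulator passed. Of 11 tested ER stress sensors and processing factors 9 were lower (median -0.20) and 0 passed; Wfs1, the ER membrane protein wolframin, averaged 216 ± 36.9 in the arrays labelled Bmi1 and 297 ± 52.2 in those labelled control (-0.52, limma adjusted p = 0.523, and 0.0820 with the block). Of 9 eIF2alpha kinases, phosphatases and regulators 7 were lower (median -0.16) and 0 passed. Ppp1r15a, which encodes GADD34, the stress-induced phosphatase subunit that reverses eIF2alpha phosphorylation, averaged 292 ± 128 in the arrays labelled Bmi1 and 227 ± 97.7 in those labelled control (0.29, adjusted p = 0.964, and 0.284 with the block). It was higher in the Bmi1 array of all 4 pairs.

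Genes of amino acid supply went both ways. Of 11 synthesis enzymes 8 were lower (median -0.21), and Cth, the cystathionine gamma-lyase that makes cysteine, fell with the block. It read 148, 355, 183 and 173 in the arrays labelled Bmi1, against 296, 495, 559.7 and 381 in those labelled control. Bmi1 2 stood above the other Bmi1 arrays, and each was below its partner (-1.12, SE 0.18, limma adjusted p = 0.0197, and 0.232 without the block). That call held in 5 of 8 other settings with the block, and was lost when replicate 1, 3 or 4 was left out, at adjusted p up to 0.0614. Cth is also an enzyme of hepatocyte sulfur metabolism. Of the 14 hepatoblast and hepatocyte markers 12 were lower and 2 higher (median -0.21). Without the block 1 of these markers passed limma as lower, where 0.165% of all tested genes passed. With the block 3 passed as lower and 0 as higher, against 3.33% of all tested genes. Dlk1 was higher in 4 of 4 pairs, at 1572, 1653, 3133 and 2609 in the arrays labelled Bmi1 against 543, 1017, 1634 and 2103 in those labelled control. The markers with the most negative differences, chosen after their values were seen, were Cyp3a11 and Ugt2b5. Cyp3a11 read 90.9 to 590.5 in the arrays labelled Bmi1 against 1702 to 2772 in those labelled control, and Ugt2b5 20.1 to 29.6 in the arrays labelled Bmi1 against 105 to 197 in those labelled control. The part of these markers in the result was not tested.

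Of 11 amino acid transporters 7 were lower (median -0.12), while Slc1a5, the glutamine carrier ASCT2, rose with the block. It read 102, 98.5, 132 and 141 in the arrays labelled Bmi1, against 49.9, 39.3, 67.0 and 70.3 in those labelled control (0.96, SE 0.15, limma adjusted p = 0.0182, and 0.153 without the block). It passed in 5 of 8 other settings with the block and missed when replicate 2, 3 or 4 was left out, at adjusted p up to 0.0654. Of 10 regulators downstream of ATF4, 5 were lower and 5 higher (median -0.01). Vldlr, a lipoprotein receptor raised by ATF4, rose with the block, at 460.4, 401, 481 and 436 in the arrays labelled Bmi1 against 282, 268, 328 and 268 in those labelled control (0.56, SE 0.11, adjusted p = 0.0359, and 0.220 without). It kept that call in 4 of 8 other settings with the block and lost it with any of the 4 pairs left out, at adjusted p up to 0.139, while its difference was 0.50 to 0.69 over all settings.

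Of 19 cytosolic tRNA synthetases, a family with many ATF4 targets, 15 were lower (median -0.18) and 0 passed. Nars, the asparaginyl-tRNA synthetase, averaged 1509 ± 175 in the arrays labelled Bmi1 and 1857 ± 271 in those labelled control (-0.37, limma adjusted p = 0.635, and 0.0833 with the block). Cytosolic heat shock genes, a separate response to misfolded protein outside the ER, were lower for 8 of 13 (median -0.06). Hspb8, a small heat shock protein, fell with the block, at 317, 541, 227 and 372 in the arrays labelled Bmi1 against 408, 867, 492 and 542 in those labelled control (-0.74, SE 0.14, adjusted p = 0.0338, and 0.568 without). It kept that call in 3 of 8 other settings with the block, with adjusted p of 0.0412 to 0.126 over the 8, and lost it when replicate 2, 3 or 4 was left out.

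**Figure D4:**
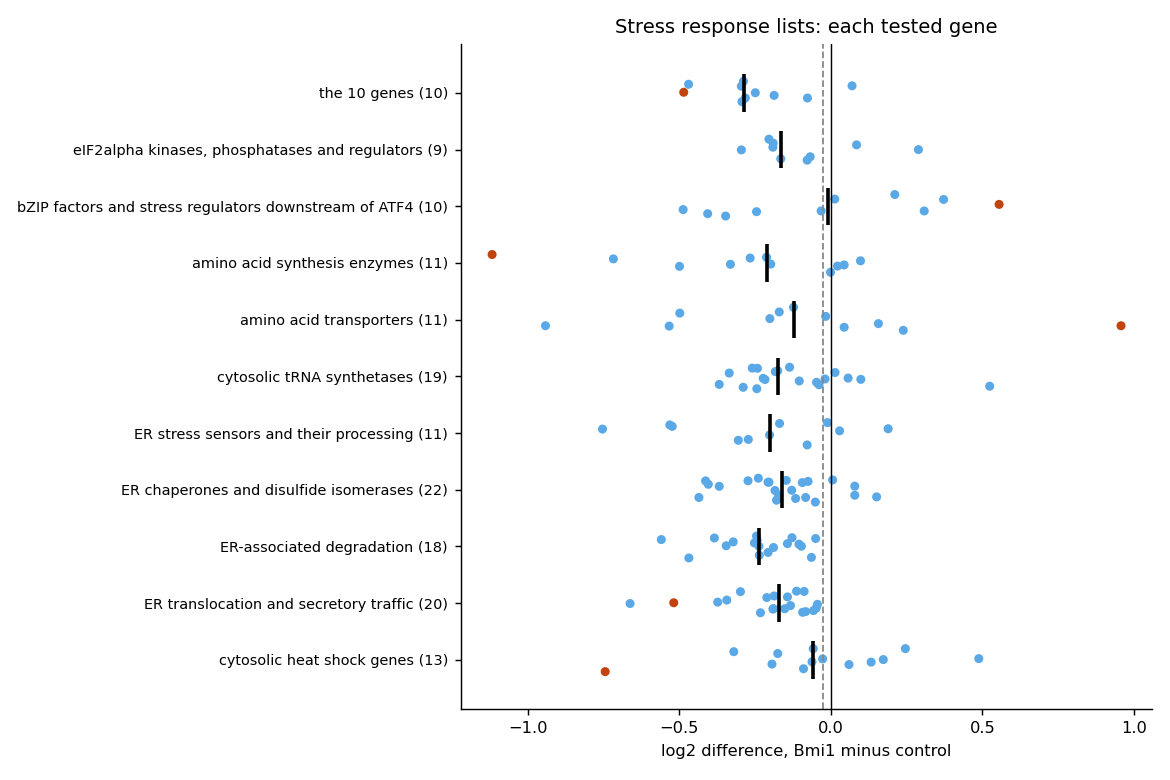
Log2 difference, Bmi1 minus control, of each tested gene of the 10 stress lists and of the 10 genes described (number of genes in brackets); black bars are medians, the dashed line is the median of all tested genes (-0.03), and red-orange points passed limma with the replicate block. Genes of ER-associated degradation and of ER translocation all lie below 0 in this scaling (13 of 18 and 12 of 20 with centring on all probe sets), and the called genes outside the 10 are Vldlr and Slc1a5 above 0 and Cth, Spcs3 and Hspb8 below it.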

How the data were processed

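The authors deposited 1 linear intensity for each of 45101 probe sets on each array, and the sources used here do not give the software. Every array has the same mean after trimming 2% at each end, so the deposited intensities carry a scaling per array. Per the labels, RNA was amplified in a two-cycle protocol before biotin labelling.

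Probe sets were named by GEO's platform annotation, with symbols brought up to date by gene identifier. The 64 control probe sets were left out, and of the others 34945 had 1 symbol, 932 several and 9160 are unnamed here. The brightest probe set stood for a gene, and genes whose mean level lay under the 40th percentile were not tested. Values were log2(intensity + 3.78), the constant being 0.25 of the median of all values, so folds of dim genes are understated. Arrays were centred on the median of the tested genes. The comparison used limma 3.58.1 and R 4.3.3 (intensity trend, two-sided, Benjamini-Hochberg over the 10916 tested genes, threshold 0.05), which was tested on simulated data. The number of arrays limits the precision. Background on an array, 4.09 to 9.97, was the 95th percentile of its 27 Bacillus control probe sets.

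The main model has no block. For same-numbered arrays the deviations from group means had correlations across genes of 0.53, 0.49, 0.50 and 0.68, and within a run the difference of its 2 numbers correlated between groups at 0.23 and 0.36. The numbers were therefore taken to pair the arrays, and the replicate block is given where it changes a call. Other settings were changes of scaling, pseudocount, filter, probe set rule, weights, trend, run and arrays left out.

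The members and lists were chosen with earlier results of these data known. Named genes are the 10 members, Bmi1, and from each list the genes called with or without the block, at most 4, or else the gene with the smallest p with the block. For Asns, Ddit3, Trib3 and Hspa5 the 3 genes with the nearest profile were named. Other named genes are cell markers or were chosen after their values were seen.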

Additional observations from a re-analysis of the deposited data

Results flagged for a closer look

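Dixon's test was run on 66 groups of 4 arrays for the genes named and set 1 array apart in 4 of them; chance does so in about 1 group of 20. Bmi1 4 was the highest of the arrays labelled Bmi1 at an Xbp1 probe set not used for the gene, with a gap of 0.839 of the range. Control 2 was the lowest of the arrays labelled control at the dimmest Hspa5 probe set, with a gap of 0.869. Bmi1 2 was the highest of the arrays labelled Bmi1 for Cth, with a gap of 0.843, and for Derl2, with a gap of 0.895.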

How the results depend on the processing

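Of the 10 genes, 0 passed in the main model and 1, Asns, with the replicate block; 0 passed in the other 30 settings. The median difference of the 10 genes was -0.28. It moved to -0.16 within run 1 (replicates 1 and 2) and -0.39 within run 2 (replicates 3 and 4), to -0.15 with arrays centred on all probe sets, to -0.17 with quantile normalisation, both the same with the replicate block, and to -0.38 with array weights. With 1 array left out it ran from -0.42 (control 1) to -0.16 (control 3). With centring on all probe sets the median of all tested genes was 0.11, against -0.03 in the main model. Of the list genes 0 were called in the main model. There were 5 with the replicate block, 1 with runs as the block and 4 with no centring and the block. There were 3 with the block and either quantile normalisation or centring on all probe sets. With all probe sets tested and the block there were 6 where any probe set of a gene counts. At 1 probe set a gene that setting called 2 lower and 2 higher. With the block and 1 pair left out the called list genes numbered 0 to 3. The sign turned for Ddit3 within run 1 (0.04) and with centring on all probe sets with and without the block (0.06), and for Atf3 within run 2 (-0.01). With 1 array left out Ddit3 ran from -0.24 to 0.05, and with 1 pair left out and the block from -0.31 to 0.07; Atf3 ran with 1 array left out from -0.27 to 0.41. The other 8 genes turned sign in no setting run, with Herpud1 at 0.00 for the mean of its probe sets. The cause was not tested. Ddit3 was under the filter at the 60th percentile. Signals near background limit the third Atf4 probe set.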
